A study of Mus musculus with 9 samples.

Results

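Ribosome biogenesis and nucleolar genes were followed here in Lin-Sca1+cKit+ (LSK) cells, the mouse bone marrow fraction that holds blood stem cells and multipotent progenitors. The set held 40 genes chosen by name, each represented by its brightest probe set that the platform annotation assigns to 1 gene, where brightest means the highest mean over all arrays. All 40 had such a probe set, out of 18193 genes with one, and all 40 passed the filter on low values that left 12398 genes for testing. The labels define 3 groups of C57BL6 mice with 3 Affymetrix arrays each. Control LSK cells came from mice transplanted with wild type LSK cells, and dnMPL GFP neg and dnMPL GFP pos cells were the GFP-negative and GFP-positive LSK cells of mice transplanted with dnMPL transduced LSK cells. The GFP-positive fraction is the one labelled as carrying the transgene. Donor marrow depleted of lineage-marked cells had been cultured with cytokines and transduced with retroviral vectors. The recipients were lethally irradiated, and cells were sorted 8 weeks after transplantation. Marrow of 2 to 5 mice was pooled for each sample. The labels name no vector for the control cells and give no donor marker that would separate surviving host cells from GFP-negative donor cells. Whether the 2 fractions of one number were sorted from the same mice is not stated. Arrays of a group are listed as separate samples, so p-values measure the spread between these pools, and 3 arrays a group bound how precise each value can be.

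Ribosomes are assembled in the nucleolus. RNA polymerase I transcribes the precursor ribosomal RNA, small nucleolar ribonucleoproteins (snoRNPs) modify it, and a large set of assembly factors cut, fold and package it with ribosomal proteins into the small and the large subunit. Blood stem cells are known for a low and tightly held rate of protein synthesis, and many genes of ribosome assembly carry binding sites for MYC in their promoters.

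No ribosome biogenesis gene passed the test in any comparison. Between GFP-positive and control cells, between GFP-negative and control cells, between the GFP fractions and for both fractions jointly against control, 0 of 40 members had a limma Benjamini-Hochberg adjusted p under 0.05, and the background was 0% of the 12398 genes tested in each. The smallest adjusted p among the members was 0.696, 0.674, 1.0 and 0.50 in that order. At an unadjusted p under 0.05, 1 member lay higher in GFP-positive than in control cells, where 3.3% of all genes did so, and 2 members lay higher in GFP-negative than in control cells, against 2.83%. Between the fractions 2 members lay lower in GFP-positive cells, against 1.27% of all genes. The first of these counts was 0 without control 3 and 2 without control 2 or GFP-positive 2. The last was 0 without GFP-negative 2, GFP-negative 3 or GFP-positive 2, 1 without GFP-negative 1 or GFP-positive 1, and 4 without GFP-positive 3. These shares of 2.5%, 5.0% and 5.0% of the members stood beside 6.49%, 5.57% and 2.55% of all genes in either direction. Both dnMPL groups were set against the same control arrays, so their 2 comparisons with control are not independent of each other.

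The arrays were alike in scale, with median log2 levels from 4.52 to 4.64, but control 3 and GFP-positive 2 stood apart from the rest. Their limma array weights were 0.365 and 0.369, against 0.809 to 2.38 for the remaining 7. Gapdh control probe sets at the 3′ end read higher than those at the 5′ end, a measure of RNA integrity and amplification, by 3.87 and 3.22 log2 units, against 2.47 to 2.89. The same gap for actin was -0.71 on control 3, within the -0.72 to -0.55 of the remaining arrays, and -1.13 on GFP-positive 2, which departs the other way. Of 6 markers listed for LSK cells 5 were measured. Ly6a (Sca-1), which defines the gate together with Kit, had no single-gene probe set, so the gate could be checked only in part. Kit was lower on GFP-positive 2 (6.38) than on the others (7.92 to 8.73). Cd34, Ptprc, Cd48 and Flt3, which do not define the gate, lay between 8.12 and 10.72 on all arrays. Of the markers of other blood cells, the mean levels of 3 lists were higher on all dnMPL than on all control arrays. These were the granulocyte, the erythroid and the monocyte and macrophage lists, and each other list overlapped control in 1 of the fractions. In GFP-negative against control, all 12 granulocyte markers were higher by point estimate, but 6 erythroid markers were higher and 3 lower. Of the 5 monocyte and macrophage markers tested, 3 were higher and 2 lower in each fraction against control. The mean level of 12 granulocyte markers was 6.74 to 8.92 on control arrays, 9.34 to 10.7 on GFP-negative and 10.1 to 11.1 on GFP-positive arrays, and that of 10 erythroid markers was 5.27 to 5.47, 6.46 to 6.88 and 6.85 to 7.11, although the globin gene Hba-a1 lay at only 3.67 to 4.74 throughout. B cell markers spanned 3.96 to 5.83, 4.96 to 6.02 and 6.42 to 6.96, monocyte and macrophage markers 4.83 to 5.08, 5.24 to 6.30 and 5.29 to 6.33, T and NK cell markers 4.14 to 4.23, 4.35 to 4.63 and 4.21 to 4.70, and megakaryocyte and platelet markers 5.16 to 5.90, 5.09 to 5.67 and 4.67 to 5.10. Their part in the members' values was not tested, and in bulk samples fewer cells of a type and less RNA per cell cannot be told apart.

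As a set, the 40 genes varied more among arrays of one group than between groups. The mean level over the members was 8.42 ± 0.11 (SD, n = 3) on the control arrays, 8.62 ± 0.31 on the GFP-negative and 8.48 ± 0.20 on the GFP-positive arrays. Control arrays ran from 8.35 to 8.55, inside the range of the GFP-negative arrays, 8.26 to 8.85, and the GFP-positive arrays ran from 8.34 to 8.71. The 3 groups overlapped. Of a member's total sum of squares over the 9 arrays, the share that lay between group means had a median of 14.6%, against 20.9% over all genes tested. For 3 members the larger part lay between groups. These were Pes1 (67.9%), Pno1 and Noc4l (55.4%), and 7.5% of the members compared with 10.9% of all genes.

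Single arrays moved most members together. On GFP-negative 2, 35 of 40 members lay above their own mean over the 9 arrays, and on GFP-negative 3 it was 32, whereas on GFP-negative 1 it was 9. The average deviation from the gene's own mean was 0.35, 0.24 and -0.24 log2 units on these arrays. Of all genes tested, 49.5%, 51.6% and 43.6% lay above their own mean on the same arrays. The 3 GFP-negative arrays thus held the highest and the lowest levels of the set. On GFP-positive 3, 29 members lay above their mean (average deviation 0.21), against 19 on GFP-positive 1 (-0.12) and 22 on GFP-positive 2 (-0.17). Among controls the counts were 14, 24 and 21, with average deviations of -0.15, 0.044 and -0.15.

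**Figure D1:**
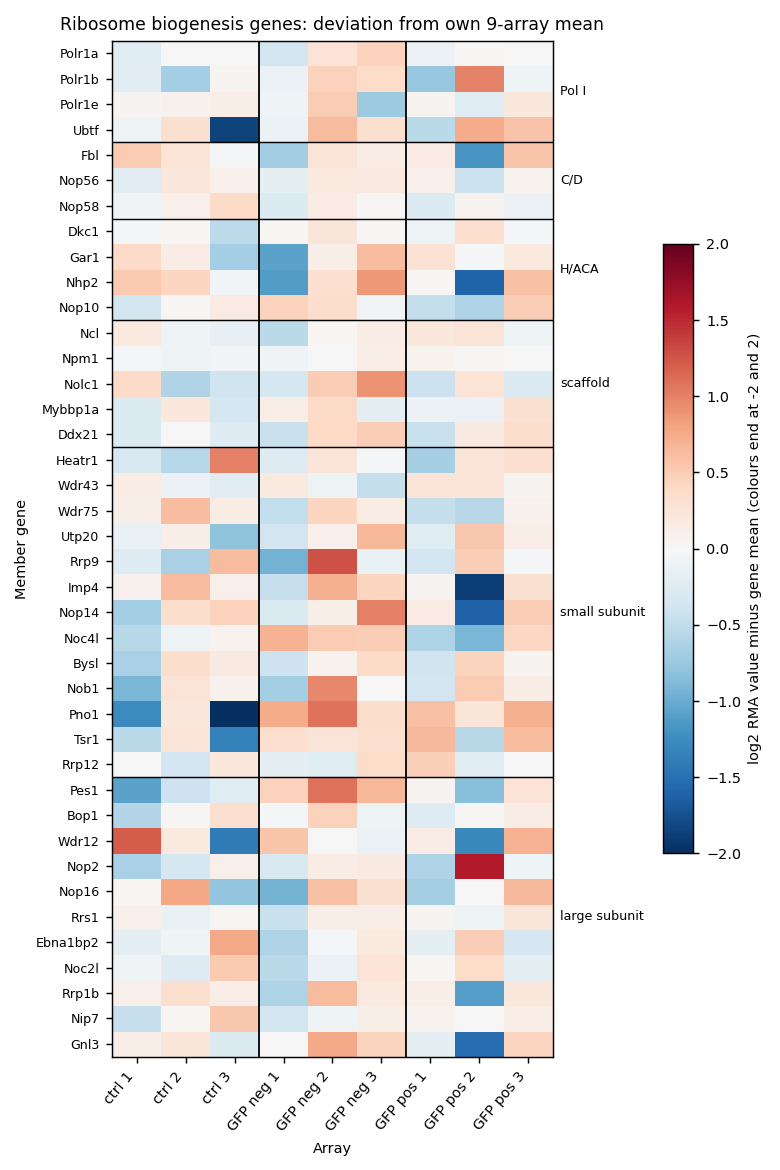
Deviation of each of the 40 members (vertical axis, grouped by role) from its own mean over 9 arrays (horizontal axis, 3 arrays per group), in log2 units and capped at 2 in either direction, with red above and blue below the mean. GFP-negative 2 is mostly red (35 of 40 members above their mean) and GFP-negative 1 mostly blue (9 of 40), while GFP-positive 2 holds deep colours of both kinds.

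GFP-positive 2 was the highest array for 7 members and the lowest for 10, 42.5% of the members together, near the 37.0% of all genes for which it was an extreme. Control 3 was an extreme for 12 (against 36.1% of all genes). GFP-negative 2 was the highest array for 10 members and GFP-negative 3 for 8. One of the arrays control 3 and GFP-positive 2 was an extreme for 27 of 40 members (67.5%, against 66.9% of all genes). The range of a member over the 9 arrays had a median of 1.48 log2 units, from 0.22 for Npm1 to 3.79 for Pno1. Without those 2 arrays the median range was 1.04, and over all genes the medians were 1.56 and 1.16.

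**Figure D2:**
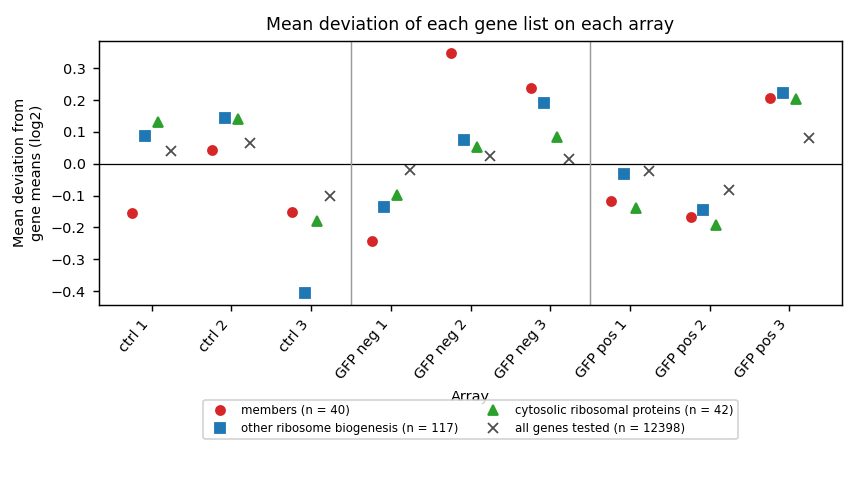
Mean deviation of the members from their own 9-array means on each array, in log2 units, beside the same measure for the other ribosome biogenesis genes and the cytosolic ribosomal proteins. The members run from -0.24 on GFP-negative 1 to 0.35 on GFP-negative 2, 2 arrays of 1 group.

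In GFP-positive cells 24 of 40 members lay higher than in control cells by point estimate, and in GFP-negative cells it was also 24 of 40, against 47.2% and 46.5% of all genes. The median difference from control was 0.055 and 0.12 log2 units, against -0.028 and -0.038 over all genes. Between GFP-positive and GFP-negative cells 14 of 40 were higher and the median was -0.060, against 51.8% and 0.015. The median size of a difference, whatever its sign, was 0.19 for GFP-positive cells against control, 0.22 for GFP-negative cells and 0.16 between the fractions, where all genes had 0.28, 0.29 and 0.25. Without control 3 and GFP-positive 2 the counts of higher members were 24, 26 and 17 of 40, with medians of 0.073, 0.14 and -0.097.

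The arrays bounded many of these differences within a doubling. The 95% interval of the difference lay wholly between -1 and 1 log2 units for 18 of 40 members when GFP-positive cells were set against control, for 15 when GFP-negative cells were, and for 18 between the fractions. Over all genes tested the shares were 34.5%, 31.9% and 36.3%, and the members' shares were 45.0%, 37.5% and 45.0%. For the rest the interval reached past a doubling or a halving, for some in both directions, so a change of that size was not excluded. On simulated arrays with these levels and spreads, 100 genes were changed by 2 log2 units, 50 by 1 and 50 by 3. Changes of 2 log2 units were recovered for 59%, 57% and 63% of genes in the 3 comparisons, and changes of 1 log2 unit for 6%, 12% and 6%. The simulated noise was independent, with 1 spread per gene on all arrays, so outlying arrays such as control 3 and GFP-positive 2 were not modelled. These shares therefore do not say how often such a change would be found on the real arrays.

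**Figure D3:**
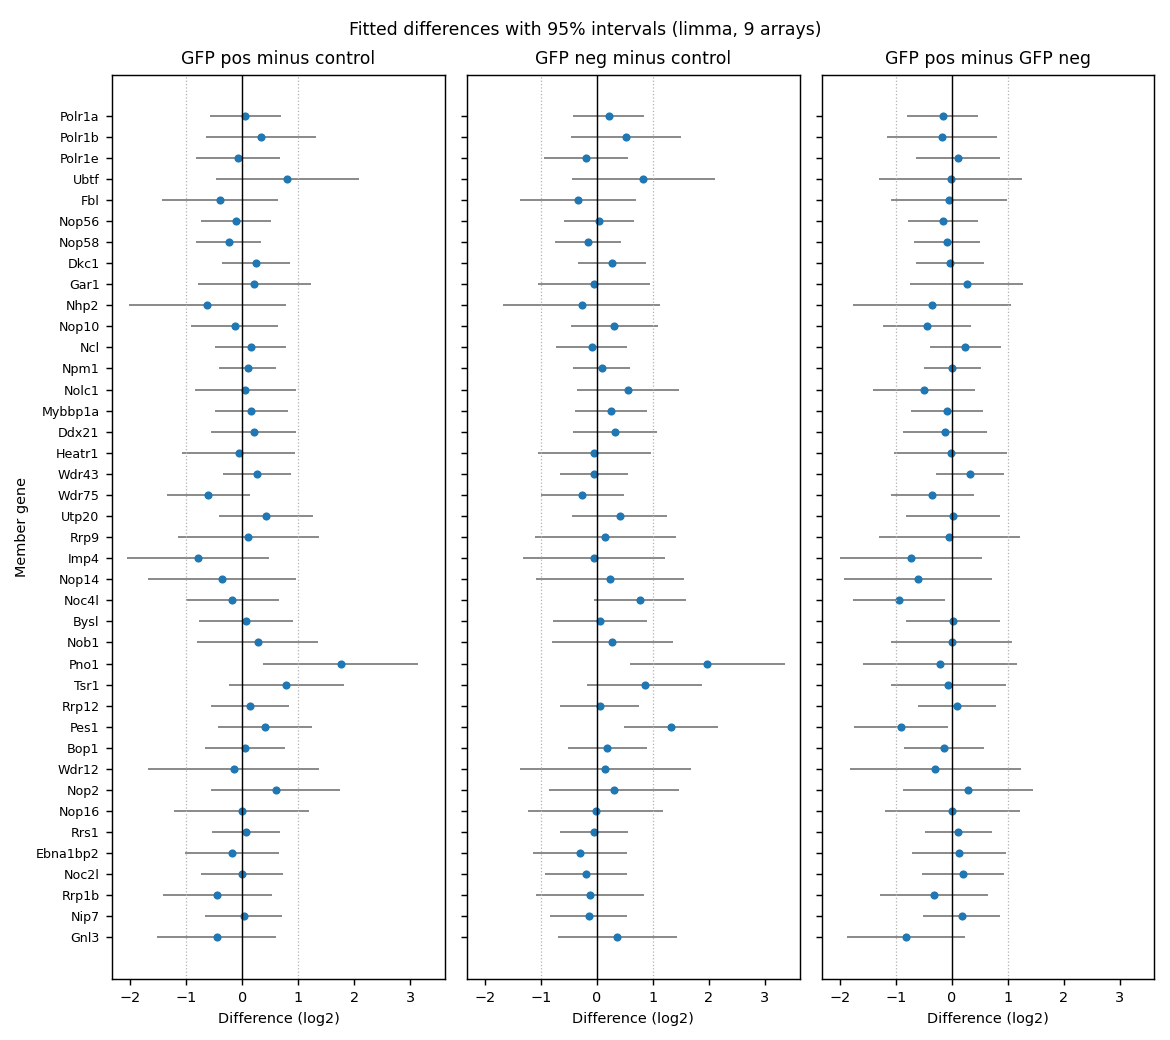
Difference of each member from control in GFP-positive cells, from control in GFP-negative cells, and between the fractions (horizontal axis, log2 units), with 95% intervals from limma. The intervals of 39, 38 and 38 of the 40 members span 0.

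The groups did not overlap for 3 members in GFP-positive against control, with Pno1 and Npm1 higher and Wdr75 lower. That was 7.5% of the members, against 8.61% of all genes. In GFP-negative against control 4 members did not overlap, with Noc4l, Pes1, Pno1 and Tsr1 higher, which was 10.0% against 11.4%. Between the fractions Noc4l and Pes1 were lower in GFP-positive cells without overlap, 5.0% against 6.4%. The members thus separated the groups no more often than genes at large. Without control 3 and GFP-positive 2, with 2 arrays left in each of these groups, the shares were 22.5%, 20.0% and 10.0% of the members against 32.1%, 23.2% and 14.5% of all genes.

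Pno1, a factor that binds the small subunit's RNA near the end that is cut last, had the widest range and the largest difference from control. Its level was 4.05, 5.54 and 2.62 on the control arrays, 6.05, 6.40 and 5.66 on the GFP-negative and 5.90, 5.56 and 6.02 on the GFP-positive arrays. Every dnMPL array lay above every control array, the closest pair being GFP-positive 2 and control 2, and control 3 was far below all others. Pno1 was the only member of 40 with such a separation (2.5%, against 3.56% of all genes). Control 3 lay below the filter level of 4.03 and control 1 close to it, so the differences from control rest partly on values near the floor. GFP-positive cells were higher by 1.76 ± 0.62 log2 units (SE; 95% interval 0.38 to 3.14; unadjusted p = 0.018, limma adjusted p = 0.696) and GFP-negative cells by 1.97 ± 0.62 (0.59 to 3.35; unadjusted p = 0.0102, adjusted p = 0.762). Neither passed the test. Without control 3 the differences were 1.03 and 1.24, and without control 2 they were 2.50 and 2.71. With both fractions taken jointly the difference was 1.86 ± 0.53, with an adjusted p of 0.50 in limma. The array holds 1 single-gene probe set for Pno1, so no other probe set could be compared. Its RefSeq promoter window in GRCm38.p6, chr11:17211540-17211839 on the minus strand, runs from 250 bases before to 50 bases after the start and is shown because the E-box CACGTG, the DNA word bound by MYC and its partner MAX, lies in it (capitals), downstream of the start.
Pno1: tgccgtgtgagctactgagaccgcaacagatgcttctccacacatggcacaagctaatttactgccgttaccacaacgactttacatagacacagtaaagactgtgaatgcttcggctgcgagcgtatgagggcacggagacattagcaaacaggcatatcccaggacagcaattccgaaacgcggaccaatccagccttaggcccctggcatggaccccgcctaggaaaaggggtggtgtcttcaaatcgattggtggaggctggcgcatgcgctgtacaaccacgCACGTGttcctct

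Tsr1, a GTPase-like factor of the late small subunit particle, followed with smaller values. Its levels were 7.80, 8.60 and 6.99 on control arrays, 8.68, 8.61 and 8.67 on GFP-negative and 8.99, 7.79 and 8.98 on GFP-positive arrays. GFP-negative arrays were nearly equal and above all controls, the closest pair being GFP-negative 2 and control 2, and GFP-positive 2 lay just below control 1. The differences from control were 0.79 ± 0.46 in GFP-positive (-0.24 to 1.82; adjusted p = 0.838 in limma) and 0.85 ± 0.46 in GFP-negative cells (-0.17 to 1.88; adjusted p = 0.899). Without control 3 they were 0.38 and 0.45, and the first was 1.19 without control 2 or GFP-positive 2.

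Pes1, Bop1 and Wdr12 form the PeBoW complex of large subunit assembly, and for Pes1 alone of the 3 did any groups lie apart, those with GFP-negative cells. Pes1 read 6.41, 7.07 and 7.25 on control arrays, 7.95, 8.58 and 8.16 on GFP-negative and 7.54, 6.65 and 7.77 on GFP-positive arrays. All GFP-negative arrays lay above all others, and the GFP-positive arrays overlapped the controls. The difference was 1.32 ± 0.38 in GFP-negative against control (0.47 to 2.16; unadjusted p = 0.00611, limma adjusted p = 0.674), 0.41 ± 0.38 in GFP-positive against control (-0.44 to 1.25) and -0.91 ± 0.38 between the fractions (-1.75 to -0.07; unadjusted p = 0.0368, adjusted p = 1.0). Leaving out single arrays kept the first between 1.07 and 1.49, and the difference between the fractions was -0.58 without GFP-positive 2. A second Pes1 probe set lay below the filter (mean 2.88) and gave -0.36 in GFP-negative against control. Bop1 differed by 0.05 ± 0.32 in GFP-positive and 0.19 ± 0.32 in GFP-negative cells from control, and Wdr12 by -0.15 ± 0.68 and 0.15 ± 0.68. Wdr12 read 9.93, 8.90 and 7.30 on the control arrays alone, a range that held all 6 dnMPL values. The Pes1 promoter window, chr11:3963725-3964024 on the plus strand, is shown for the same word, which again lies downstream of the start.
Pes1: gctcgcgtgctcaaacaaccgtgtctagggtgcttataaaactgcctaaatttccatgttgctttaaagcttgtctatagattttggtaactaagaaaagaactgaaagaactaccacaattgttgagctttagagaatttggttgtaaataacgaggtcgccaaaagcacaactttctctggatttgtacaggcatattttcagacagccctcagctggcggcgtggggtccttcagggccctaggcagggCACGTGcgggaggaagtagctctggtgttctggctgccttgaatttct

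Noc4l, a partner of Nop14 in the small subunit particle, was the other member for which GFP-negative arrays lay above all others. It read 9.57, 10.01 and 10.19 on control arrays, 10.82, 10.62 and 10.61 on GFP-negative and 9.50, 9.20 and 10.53 on GFP-positive arrays. GFP-positive 3 came close to the GFP-negative arrays and the other GFP-positive arrays lay below the controls. GFP-negative cells were higher than control by 0.76 ± 0.37 (-0.06 to 1.59; adjusted p = 0.884) and GFP-positive lower than GFP-negative cells by 0.94 ± 0.37 (0.11 to 1.76 lower; unadjusted p = 0.0296, adjusted p = 1.0, both limma). The brightest Noc4l probe set is of the _x_at kind, whose probes can also match other transcripts, and the 4 Noc4l probe sets ran from -0.94 to 0.17 between the fractions. Nop14 itself read 6.69, 7.72 and 7.83 on control, 7.08, 7.48 and 8.38 on GFP-negative and 7.54, 5.75 and 7.85 on GFP-positive arrays, with GFP-positive 2 lowest. It differed from control by -0.37 ± 0.59 in GFP-positive and 0.23 ± 0.59 in GFP-negative cells.

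**Figure D4:**
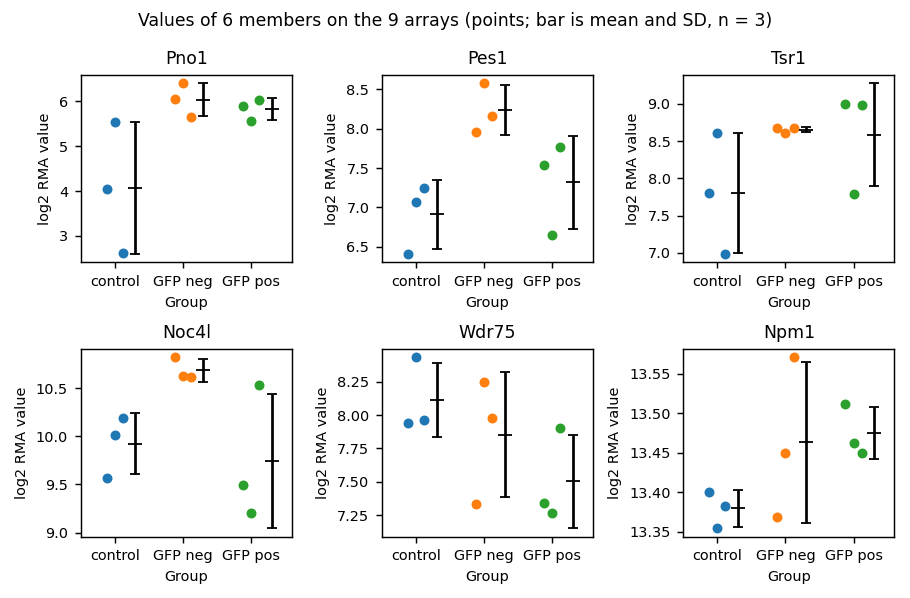
Log2 RMA level on each of the 9 arrays for 6 members, with each point 1 array, the mark beside it the group mean and the bar the SD over 3 arrays; the vertical scales differ between panels. Pno1 lies higher on all 6 dnMPL than on all 3 control arrays, and Pes1 and Noc4l are highest on the GFP-negative arrays. Tsr1 lies above control without overlap on the GFP-negative arrays. On the GFP-positive arrays Npm1 lies above and Wdr75 below control without overlap. The remaining pairs of groups of these last genes overlap.

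Among the other small subunit factors, Wdr75, a subunit of the complex that binds the 5′ end of the precursor RNA, was lowest in GFP-positive cells. It read 7.94, 8.43 and 7.97 on control, 7.34, 8.25 and 7.98 on GFP-negative and 7.34, 7.26 and 7.90 on GFP-positive arrays. GFP-positive and control arrays did not overlap, by a gap between 7.90 and 7.94, and GFP-negative arrays spanned both. The differences from control were -0.61 ± 0.33 in GFP-positive (-1.35 to 0.13; limma adjusted p = 0.818) and -0.26 ± 0.33 in GFP-negative cells. Heatr1 and Wdr43, of the same early complexes, differed from control by -0.07 ± 0.45 and 0.26 ± 0.27 in GFP-positive and by -0.05 ± 0.45 and -0.06 ± 0.27 in GFP-negative cells.

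Imp4, which helps the U3 small nucleolar RNA pair with the precursor RNA, had a difference that rested on 1 array. It read 9.03, 9.57 and 9.04 on control, 8.47, 9.64 and 9.37 on GFP-negative and 8.99, 7.05 and 9.24 on GFP-positive arrays. Only GFP-positive 2 was far from the rest. The GFP-positive difference from control of -0.79 ± 0.57 (-2.06 to 0.48; limma adjusted p = 0.902) was -0.096 without that array and -1.19 without GFP-positive 3, and that between the fractions, -0.73 ± 0.57 (interval spanning 0; adjusted p = 1.0), was -0.043 and -1.14. Over the 13 small subunit members the median difference was 0.11 in GFP-positive and 0.15 in GFP-negative cells against control, and -0.044 between the fractions. Utp20 differed from control by 0.42 ± 0.38 and 0.40 ± 0.38, and the endonuclease Nob1, which makes that last cut, by 0.27 ± 0.48 in both. Bysl, Rrp9 and Rrp12 differed from control by 0.07 ± 0.37, 0.11 ± 0.56 and 0.14 ± 0.31 in GFP-positive cells. In GFP-negative cells their differences were 0.05 ± 0.37, 0.15 ± 0.56 and 0.05 ± 0.31.

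Large subunit factors were centred on no difference. The median over the 11 members was 0.0015 for GFP-positive cells against control, -0.023 for GFP-negative cells against control and 0.011 between the fractions. Nop2, an RNA methyltransferase, read 6.38, 6.68 and 7.13 on control, 6.71, 7.17 and 7.21 on GFP-negative and 6.41, 8.61 and 6.95 on GFP-positive arrays. GFP-positive 2 was again the outlying array. Its difference of 0.59 ± 0.51 in GFP-positive against control (-0.56 to 1.75; limma adjusted p = 0.932) was -0.049 without that array and 1.05 without GFP-positive 1. Gnl3 (nucleostemin), a nucleolar GTPase known from stem cells, read 8.89, 9.01 and 8.49 on control, 8.75, 9.52 and 9.21 on GFP-negative and 8.59, 7.24 and 9.19 on GFP-positive arrays. Its difference between the fractions, -0.82 ± 0.47 (-1.88 to 0.24; adjusted p = 1.0), was -0.27 without GFP-positive 2 and -1.25 without GFP-positive 3. Rrs1, which brings the 5S particle into the large subunit, read 10.08 to 10.77 on all arrays, with differences of 0.06 ± 0.27 and -0.05 ± 0.27 from control. This brightest Rrs1 probe set is also of the _x_at kind. The second Rrs1 probe set ranged more widely, from 6.03 on control 3 to 9.23 on GFP-negative 3. It gave -0.20 and 0.75 from control in GFP-positive and GFP-negative cells, and -0.95 between the fractions. Nop16, Ebna1bp2, Noc2l, Nip7 and Rrp1b differed by less than 0.5 log2 units in each comparison.

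RNA polymerase I transcription genes had medians of 0.19 in GFP-positive and 0.36 in GFP-negative cells against control. Polr1a, the largest subunit of the polymerase, read 7.20, 7.44 and 7.44 on control, 7.08, 7.73 and 7.91 on GFP-negative and 7.33, 7.47 and 7.44 on GFP-positive arrays, with all groups overlapping. Polr1b, the second largest subunit, differed from control by 0.33 ± 0.44 and 0.51 ± 0.44, and Polr1e by -0.08 ± 0.33 and -0.19 ± 0.33. Ubtf, the factor that holds active ribosomal genes open, read 7.57, 8.00 and 5.82 on control, 7.57, 8.31 and 8.00 on GFP-negative and 7.14, 8.42 and 8.25 on GFP-positive arrays. Control 3 alone lay outside the values of the other groups. The Ubtf differences of 0.81 ± 0.57 in GFP-positive (-0.47 to 2.08; limma adjusted p = 0.896) and 0.83 ± 0.57 in GFP-negative cells (adjusted p = 0.92) were 0.15 and 0.17 without control 3, and 1.24 and 1.26 without control 2.

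The snoRNP proteins had point estimates of both signs. Of the box C/D particle, which methylates ribosomal RNA, the methyltransferase Fbl (fibrillarin) read 10.52, 10.29 and 9.98 on control, 9.32, 10.27 and 10.16 on GFP-negative and 10.17, 8.84 and 10.57 on GFP-positive arrays. Its lowest values came from GFP-negative 1 and GFP-positive 2, and the groups overlapped. Fbl, Nop56 and Nop58 differed from control by -0.40 ± 0.46, -0.12 ± 0.28 and -0.25 ± 0.26 in GFP-positive and by -0.35 ± 0.46, 0.04 ± 0.28 and -0.16 ± 0.26 in GFP-negative cells. Of the box H/ACA particle, which makes pseudouridine, the synthase Dkc1 (dyskerin) read 9.77, 9.82 and 9.26 on control, 9.82, 10.04 and 9.81 on GFP-negative and 9.69, 10.12 and 9.77 on GFP-positive arrays. Its differences were 0.24 ± 0.27 (-0.37 to 0.85) and 0.27 ± 0.27 (-0.33 to 0.88). Gar1, Nhp2 and Nop10, the other core proteins, differed from control by 0.21 ± 0.45, -0.62 ± 0.63 and -0.14 ± 0.35 in GFP-positive and by -0.05 ± 0.45, -0.27 ± 0.63 and 0.31 ± 0.35 in GFP-negative cells. Nop10 read 10.29, 10.68 and 10.82 on control, 11.12, 11.00 and 10.60 on GFP-negative and 10.18, 10.04 and 11.15 on GFP-positive arrays, and GFP-positive 3 was its highest array. Between the fractions it differed by -0.45 ± 0.35 (-1.23 to 0.34; limma adjusted p = 1.0), by -0.24 without GFP-positive 2 and by -0.80 without GFP-positive 3.

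Nucleolar scaffold and chaperone genes held the member whose brightest probe set had the narrowest range. Npm1 (nucleophosmin), the most abundant nucleolar chaperone and a gene often mutated in myeloid leukaemia, read 13.40, 13.35 and 13.38 on control, 13.37, 13.45 and 13.57 on GFP-negative and 13.51, 13.46 and 13.45 on GFP-positive arrays. GFP-positive arrays lay above the controls without overlap, but by a small margin. The difference was 0.10 ± 0.23 in GFP-positive (-0.42 to 0.61) and 0.08 ± 0.23 in GFP-negative cells (-0.43 to 0.59). The standard error is wider than the scatter of these arrays alone, since limma draws the spread of each gene towards that of all genes. This probe set lies near the top of the arrays' scale. The second Npm1 probe set read 10.32 to 11.47 over the 9 arrays, lowest on control 3, with differences of 0.05 ± 0.33 and 0.04 ± 0.33 from control. Ncl (nucleolin) read 12.74, 12.47 and 12.38 on control, 12.02, 12.58 and 12.70 on GFP-negative and 12.76, 12.81 and 12.47 on GFP-positive arrays. It differed from control by 0.15 ± 0.28 and -0.10 ± 0.28.

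Nolc1, which binds and chaperones snoRNPs, read 8.53, 7.55 and 7.75 on control, 7.80, 8.66 and 9.05 on GFP-negative and 7.71, 8.42 and 7.87 on GFP-positive arrays. The GFP-negative values reached highest, but the groups overlapped. It differed by 0.56 ± 0.41 in GFP-negative against control (-0.35 to 1.47; limma adjusted p = 0.924) and by -0.50 ± 0.41 between the fractions (-1.41 to 0.41; adjusted p = 1.0). The first was 0.91 without GFP-negative 1, 0.85 without control 1, 0.36 without control 2 and 0.29 without GFP-negative 3, and the other was -0.85 without GFP-negative 1 and -0.23 without GFP-negative 3. Mybbp1a and the helicase Ddx21 differed from control by 0.16 ± 0.29 and 0.20 ± 0.34 in GFP-positive and by 0.25 ± 0.29 and 0.32 ± 0.34 in GFP-negative cells. By their brightest probe sets, all 5 genes of this group were higher in GFP-positive than in control cells by point estimate, with a median of 0.15. In GFP-negative cells 4 of 5 were, with a median of 0.25. The second brightest probe sets gave -0.92 for Nolc1 and -0.20 for Mybbp1a in GFP-positive against control. Those of Ncl, Npm1 and Ddx21 gave 0.34, 0.05 and 0.14.

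Different probe sets of one member often disagreed. The array holds 84 single-gene probe sets for the 40 members, and 0 of 84 passed the limma test in any of the 3 comparisons. For the 25 members with at least 2 probe sets above the filter, the brightest and the second brightest gave a difference of the same sign for 10 in GFP-positive cells against control, for 15 in GFP-negative cells against control and for 13 between the fractions. Nolc1 had the widest spread. Its 3 probe sets gave between -1.81 and 0.76 between the fractions, and the second one read 8.35, 3.94 and 8.73 on the GFP-positive arrays, low on GFP-positive 2 alone. Bysl ran from -1.34 to 0.02, Nip7 from -1.01 to 0.18, Noc4l from -0.94 to 0.17 and Nhp2 from -0.35 to 0.87.

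Other genes of the pathway gave a like picture. Of 120 further ribosome biogenesis genes listed 117 were tested, and 0 of 117 passed the limma test in any comparison. By point estimate 64 were higher in GFP-positive and 72 in GFP-negative cells than in control, and 55 in GFP-positive than in GFP-negative cells, with medians of 0.028, 0.11 and -0.026. The outlying array control 3 weighs on the counts against control, as it was the lowest array for 42 of the 117. Their mean deviation was 0.089, 0.14 and -0.40 on the control arrays. It was -0.14, 0.076 and 0.19 on the GFP-negative and -0.034, -0.15 and 0.22 on the GFP-positive arrays. At an unadjusted limma p under 0.05, 3 genes differed in each comparison with control and 0 between the fractions. Each 3 made up 2.56% of the 117, against 6.49% of all genes for GFP-positive and 5.57% for GFP-negative cells. Between the fractions 2.55% of all genes did so. In GFP-positive against control the 3 genes were Tbl3 and Nat10 of the small subunit particle (1.16 ± 0.46 and 0.97 ± 0.40) and Utp6 (-1.12 ± 0.49). Utp6 read 7.07, 5.63 and 7.87 on the GFP-positive arrays, and its difference was -0.51 without GFP-positive 2. Next in order was the exosome nuclease Exosc10 (1.34 ± 0.60), which was 0.72 without control 3. In GFP-negative against control they were Mphosph10 (0.86 ± 0.34), Urb1 (0.68 ± 0.30) and the methyltransferase Bud23 (-0.78 ± 0.33), followed by Efl1 (-0.73 ± 0.34). Urb1 was 0.41 without GFP-negative 3, and Efl1 -0.46 without control 1. Between the fractions the smallest p belonged to Taf1c, a polymerase I initiation factor (-0.66 ± 0.31), Utp6 (-0.90 ± 0.49), Rcl1 (0.67 ± 0.37) and Tsr3 (0.75 ± 0.42). Without GFP-positive 2, Utp6 was -0.29 and Tsr3 0.44, and without GFP-positive 3 Utp6 was -1.41.

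Cytosolic ribosomal proteins, the building blocks that assembly factors place, had narrower ranges than the assembly factors over the same arrays. Of 79 listed 44 had a single-gene probe set and 42 were tested. Their median range over the 9 arrays was 0.62 log2 units, against 1.48 for the members. Their probe sets also lay higher on the arrays' scale, with means per array of 11.4 to 11.8, against 8.26 to 8.85 for the members. The part of this level in the ranges was not tested. None passed the limma test, and 0 of 42 had an unadjusted p under 0.05 in any of these comparisons. Of all genes 6.49% did so in GFP-positive and 5.57% in GFP-negative cells against control, and 2.55% between the fractions. By point estimate 12 were higher in GFP-positive and 19 in GFP-negative cells than in control, with medians of -0.082 and -0.019. Above their own mean lay 35, 37 and 4 of 42 on the control arrays, 17, 32 and 28 on the GFP-negative and 5, 9 and 42 on the GFP-positive arrays, so arrays of one group went opposite ways.

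MYC, MYCN and MAX are transcription factors known to drive ribosome biogenesis. Myc read 11.04, 11.01 and 11.06 on control, 10.84, 10.88 and 11.05 on GFP-negative and 10.52, 10.86 and 10.95 on GFP-positive arrays. It differed from control by -0.26 ± 0.24 in GFP-positive and -0.11 ± 0.24 in GFP-negative cells. Max differed by 0.35 ± 0.46 and 0.15 ± 0.46. Mycn had the largest difference of the MYC list. It read 9.39, 8.82 and 8.72 on control, 6.96, 7.66 and 6.79 on GFP-negative and 6.21, 3.60 and 7.39 on GFP-positive arrays, all dnMPL arrays below all controls. The differences were -3.24 ± 0.79 (-5.02 to -1.46; unadjusted p = 0.00243, limma adjusted p = 0.481) and -1.84 ± 0.79 (-3.62 to -0.06; unadjusted p = 0.044, adjusted p = 0.876), so Mycn did not pass either. Its lowest value, 3.60, came from the outlying array GFP-positive 2 and lies below the filter level of 4.03, and the first difference leans on it. Mxd3, a MAX partner known as a repressor and named here after its values were seen, lay the other way. It read 8.13, 8.32 and 6.62 on control, 9.66, 9.09 and 8.37 on GFP-negative and 8.86, 8.63 and 9.13 on GFP-positive arrays, all dnMPL arrays above all controls. Its differences were 1.19 ± 0.49 (limma adjusted p = 0.731) and 1.35 ± 0.49 (adjusted p = 0.859). The lowest Mxd3 value, 6.62, came from the outlying array control 3, and both differences lean on it. Both fractions lay apart from control for 16.7% of this short list, chosen with earlier results known, against 3.56% of all genes. Of the 12 genes of the list, 6 were higher in GFP-positive and 8 in GFP-negative cells than in control by point estimate. The members and the ribosomal proteins had small median differences on the same arrays.

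Promoter sequences of the members were read from RefSeq windows of 300 bases in GRCm38.p6, from 250 before to 50 after the start. The table held 44 windows for 35 of 40 members. Rrs1, Fbl, Npm1, Rrp12 and Bop1 had no entry. The E-box CACGTG, which reads the same on both strands, was in a window of 8 of 35 members (22.9%), of 20 of 97 other ribosome biogenesis genes (20.6%), of 11.5% of 10015 genes tested and of 8.09% of 27025 genes in the table. The ETS core CCGGAA, searched on both strands, was in 37.1% of members, 62.9% of the other ribosome biogenesis genes and 29.7% of genes tested. The GC box GGGCGG was in 74.3%, 64.9% and 65.6%, and the TATA word TATAAA in 5.71%, 7.22% and 9.11%. The median GC content of the windows was 57.7% for members and 60.3% for genes tested. A match is a description of the letters and not a binding site. Besides Pno1 and Pes1 above, the E-box members were Imp4 and Nop2, with the word upstream of the start, and Utp20, Mybbp1a, Tsr1 and Wdr43, with the word downstream. Their stretches are shown with the word in capitals, at chr1:34439696-34439725 (plus strand), chr6:125131811-125131840 (plus), chr10:88826765-88826789 (minus), chr11:72441355-72441376 (plus), chr11:74898092-74898121 (plus) and chr17:71616220-71616249 (plus), in that order.
Imp4: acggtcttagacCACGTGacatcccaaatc
Nop2: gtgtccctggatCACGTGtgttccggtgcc
Utp20: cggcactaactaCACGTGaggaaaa
Mybbp1a: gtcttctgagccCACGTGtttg
Tsr1: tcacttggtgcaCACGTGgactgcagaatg
Wdr43: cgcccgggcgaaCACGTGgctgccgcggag

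The 8 members with the E-box had a median difference of 0.41 in GFP-positive and 0.35 in GFP-negative cells against control, with 7 and 6 of 8 higher. Their differences ran from -0.79 (Imp4) to 1.76 (Pno1) in GFP-positive cells, and none of the 8 passed the limma test. The outlying arrays weigh on these values. Control 3 was the lowest array for Pno1, Tsr1, Utp20 and Mybbp1a. GFP-positive 2 was the highest array for Nop2 and Wdr43 and the lowest for Imp4. The counts also depend on the probe set chosen. Second brightest probe sets above the filter put GFP-positive cells at -0.78 for Wdr43, -0.20 for Mybbp1a, 0.14 for Imp4 and 0.29 for Tsr1 from control. Only Tsr1 kept its sign. For GFP-negative cells these probe sets gave -0.45, -0.11, 0.059 and 0.27, with the sign changed for Mybbp1a and Imp4. The 27 members without the E-box in a listed window had medians of -0.012 and 0.051, with 13 and 15 higher. Between the fractions the medians were -0.078 and -0.082. Of the other ribosome biogenesis genes, 16 of 20 with the E-box were higher in GFP-positive than in control cells, with a median of 0.14. Without it in a listed window 40 of 77 were, with a median of 0.016. For GFP-negative cells against control it was 15 of 20 (0.22) and 48 of 77 (0.091). Over all genes tested, 49.9% of those with the E-box and 47.2% of those without were higher in GFP-positive than in control cells, and 49.6% and 46.8% in GFP-negative cells. These counts were made with the members' differences known and carry no test.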

How the data were processed

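Per the labels, RNA of 9 LSK samples was reverse transcribed, amplified and biotin-labelled for Affymetrix arrays. The deposited values are log2 values made by the authors with RMA, per the submitters' processing notes, which give no version. RMA corrects background, quantile-normalizes the arrays and summarises the probes of each probe set, so a shift shared by all genes would not show. The genome build behind the probe sets is not given in the sources used here.

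Of 45101 probe sets 64 were controls, and the platform annotation named 1 gene for 34945, several for 932 and none for 9160. Symbols were updated through RefSeq by Entrez number for 34741. Each gene took its brightest single-gene probe set, and genes with a mean above the 40th percentile of probe sets (4.03) were tested. Levels of different probe sets were not compared as measures of expression. Groups were fitted in limma 3.58.1 (R 4.3.3; lmFit, eBayes, all 9 arrays, no block) with Benjamini-Hochberg adjustment over 12398 genes and a threshold of 0.05. Differences are between group means on the log2 scale. Scripts were tested on simulated data with 12398 genes.

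The members and lists were chosen with earlier results of these data known. Full statistics are given for the 6 members, and values for the 4 other ribosome biogenesis genes, with the smallest p in each comparison, for Myc, Mycn and Max, and for the 5 members whose probe sets differed most. Other values of members were given for their role. Mxd3, the second Npm1 probe set, the ribosomal protein counts by array and the count of E-box members by direction were chosen with those values in view. Other settings tried were the filter, probe set, normalization, variance prior, array weights, arrays in the fit, replicate number as a block, threshold and each array left out. Same-numbered arrays of different groups correlated at -0.29 to 0.0994 in their deviations from group means, so the numbers were not taken as pairs. Sequences are from RefSeq GRCm38.p6. Figures were drawn with matplotlib 3.10.9.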

Additional observations from a re-analysis of the deposited data

How the results depend on the processing

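The count of members past the threshold was 0 of 40 under every alternative run in each comparison, with the smallest adjusted p of a member between 0.281 and 0.966 in GFP-positive against control, 0.176 and 0.999 in GFP-negative against control, 0.59 and 1.0 between the fractions, and 0.166 and 0.762 for both fractions jointly. The median difference of the members ran from -0.011 to 0.10, 0.018 to 0.28, -0.22 to 0.010 and 0.032 to 0.14 in the same order. Counts of members at an unadjusted p under 0.05 ran from 0 to 2, 2 to 3, 0 to 4 and 1 to 4. Each replicate number occurs once in each group, so taking it as a block cannot move a difference between groups. The medians of 0.055, 0.12 and -0.060 were thus fixed in advance, and only the p-values could change. With that block the members past the threshold remained 0, and Pno1 had a limma adjusted p of 0.655 in GFP-positive against control. With array weights, both fractions jointly against control gave 3 genes past the threshold among all tested and 0 members.

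Values of single genes reversed in 12 cases. With the second brightest probe set, GFP-positive against control gave 0.14 for Imp4, -0.16 for Ubtf, -0.064 for Exosc10 and -0.089 for Nat10. GFP-negative against control gave -0.36 for Pes1, 0.22 for Efl1, -0.11 for Mphosph10 and -0.0040 for Urb1, and the comparison of the fractions gave 0.084 for Imp4 and 0.082 for Pes1. Without GFP-positive 2, Nop2 was -0.049 in GFP-positive against control, and without that array and control 3, Ubtf was -0.088. The cause was not tested. The 3 arrays a group limit precision.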
